A study of Saccharomyces cerevisiae with 12 samples.

Results

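The response of rho+ budding yeast (Saccharomyces cerevisiae cells that carry mitochondrial DNA) to 4 h without glucose was measured across the genome. It rests on the 3 arrays titled as rho+ without glucose and the 3 titled as rho+ with 2% glucose, which are 6 of the 12 arrays of the series. The other 6 arrays hold the same treatment of rho0 cells, which lack mitochondrial DNA. All cultures were grown at 22 °C in the medium that the labels call CM, with 2% glucose, to early log phase. One portion of each was harvested there, as the glucose group, while the remaining cells were pelleted, rinsed and shaken for 4 h in CM lacking glucose. The strain background is not given in the sources used here. No culture was rinsed and shaken with glucose for the same time, so the loss of glucose and the handling cannot be told apart. Glucose withdrawal stands below for all of these steps.

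Budding yeast prefers glucose, ferments it, and keeps genes for other foods repressed while it lasts. When glucose runs out, the kinase Snf1 lifts this repression, protein kinase A becomes less active, and stress genes and respiratory genes are switched on while growth genes are turned down. Cells with mitochondrial DNA can then respire ethanol, acetate, lactate or the carbon skeletons of amino acids.

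The labels were checked on genes of the mitochondrial DNA. OLI1, a mitochondrial gene for a subunit of the ATP synthase, had signals of 100.3 to 158.7 on the 6 rho+ arrays and of at most 0.436 on the 6 rho0 arrays. COX1, for a subunit of cytochrome c oxidase, lay between 2.11 and 13.7 on the rho+ arrays and at or below 1.79 on the rho0 arrays. The signal is the brightness of a probe set in arbitrary units, and 5.82 is taken as the detection level here. The RNA was purified by its poly(A) tails, and COX2, COX3, COB, ATP6, ATP8 and VAR1, also mitochondrial genes, were not above detection in the mean of any group. The arrays thus went with their label. MFA1 and MFA2, the genes of the pheromone of MATa cells, had signals of at least 2426 on every rho+ array, and STE3, the pheromone receptor gene of MATalpha cells, lay between 3.59 and 7.10, around the detection level. On the rho+ arrays, 89.8% to 91.5% of the genes with a probe set lay above detection. Pearson's r across 7483 probe sets was 0.967 to 0.982 between the no-glucose replicates, 0.982 to 0.987 between the glucose replicates, and 0.926 to 0.951 between the groups.

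After glucose withdrawal 500 of 5361 genes rose (9.33%) and 1036 fell (19.3%), so 28.7% were called. A gene is called where the adjusted p of the limma fit across all probe sets is under 0.05, and log2 changes are no glucose minus glucose. Falls were more frequent but smaller. At least 2-fold changes were called for 264 genes that rose (4.92%) and 266 that fell (4.96%), at least 4-fold ones for 65 and 3 genes, and at least 8-fold ones for 23 and 0. The replicates of the groups did not overlap for 886 genes that were above (16.5%) and 1882 that were below (35.1%). The split depends on the scaling of the arrays. The median change of all genes was -0.19, and with each array centred on its median it was -0.03, with 656 genes higher and 579 lower. Scaled on the poly-A control probe sets, it was -0.15, with 342 genes higher and 372 lower. The mean log2 signal of these controls had an SD of 0.34 over the glucose arrays and of 0.05 over the no-glucose arrays. The scaling carries this spread into the values, and its part in the lost calls was not tested. Without glucose replicate 2 the counts were 347 and 613, and without glucose replicate 3 they were 375 and 658. The arrays share a trimmed mean of 100.1, so the signals are relative levels within an array and not absolute amounts of RNA. In a bulk culture, fewer cells with a transcript and less of it in each cell cannot be told apart.

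**Figure D1:**
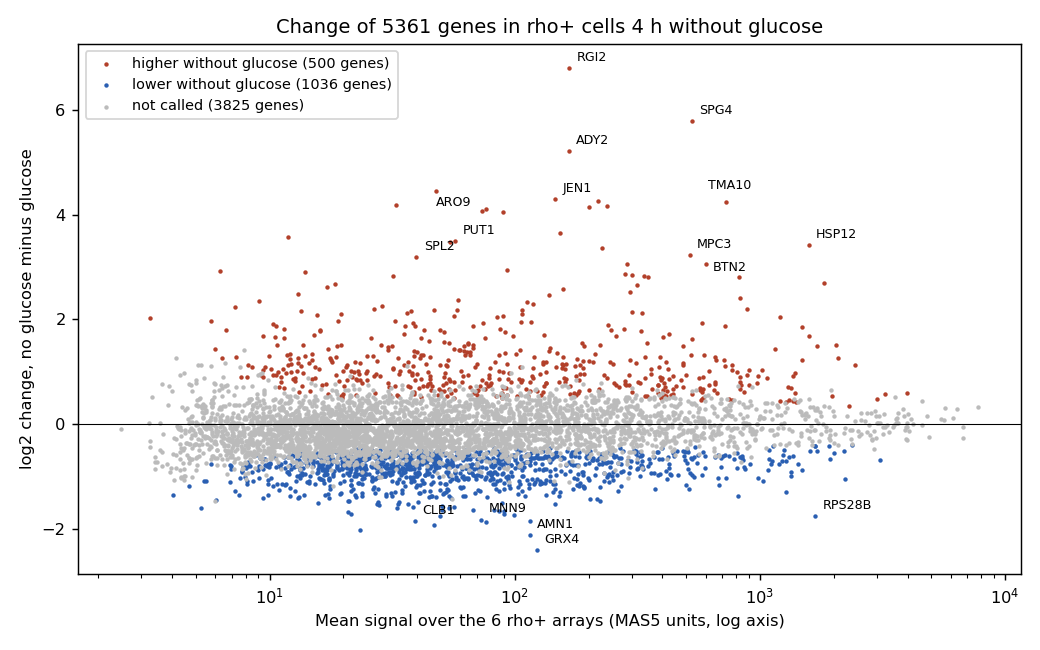
Log2 change of each of the 5361 genes after glucose withdrawal in rho+ cells (vertical) against its mean signal on the 6 rho+ arrays (horizontal, MAS5 units, log axis). Red points are the 500 called genes that rose, blue points the 1036 that fell. The rises reach 6.80 and the falls -2.41.

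The largest rise was that of RGI2, a gene induced in respiratory growth. RGI2 had signals of 302.1, 344.6 and 349.4 without glucose, against 2.22, 1.08 and 1.27 with it. The glucose replicates were all under the detection level, so the rise was at least 56.9-fold (adjusted p = 1.2e-09). In folds written as "at least", the mean of the bright group is set against the detection level, since the dim group has only a bound. SPG4, a gene needed for survival in stationary phase, followed with 1182, 808.7 and 1127 without glucose and 17.6, 17.0 and 16.6 with it, a 55.4-fold rise. The groups did not overlap in either gene. Of the next 3, ADY2 (log2 change 5.22) encodes an acetate permease and JEN1 (4.29) a lactate and pyruvate permease. FDH1 (4.46), for formate dehydrogenase, stands on a probe set shared with similar transcripts, and its rise was at least 15.3-fold. ATO2 (4.26) is a relative of ADY2, and TMA10 (4.25) encodes a ribosome-associated protein. TMA10 had signals of 1501, 1154 and 1497 without glucose, against 90.8, 67.9 and 57.4 with it.

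The 20 largest rises held genes of several kinds. CTA1 (4.11) for peroxisomal catalase, POT1 (4.05) for the thiolase of fatty acid breakdown and CRC1 (3.48) for the carnitine carrier belong to fat and acetyl-group use. ARO9 (4.06) and PUT1 (3.49) break down amino acids, and MPC3 (3.23) is a subunit of the mitochondrial pyruvate carrier. CSR2 (4.18, shared probe set, at least 10.7-fold) is an adaptor of the ubiquitin ligase Rsp5, and PRR2 (3.58) is a protein kinase. The others were YNL194C (4.16), MMO1 (4.15), ISF1 (3.64), SUC2 (3.36, shared probe set), for invertase, and the stress protein gene HSP12 (3.42). HSP12 belongs to 34 general stress genes, of which 19 rose (55.88%, against 9.33% over all genes) and 0 fell, with a median of 0.65. The rise of PRR2 was at least 3.87-fold, with 19.8, 18.5 and 31.3 without glucose and at most 0.673 with it.

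The falls were led by GRX4, for a glutaredoxin that takes part in iron sensing. GRX4 had 33.4, 41.1 and 37.9 without glucose, against 152.8, 233.1 and 242.8 with it, which is a 5.33-fold fall (adjusted p = 2.0e-05). AMN1, whose product restrains the exit from mitosis, fell 4.37-fold, with 43.7, 44.6 and 37.7 without glucose and 177.1, 192.4 and 195.9 with it. CLB1 (-1.86) encodes a mitotic cyclin. MNN9 (-1.83), MNN11 (-1.86) and ANP1 (-1.65) encode subunits of the Golgi enzymes that extend mannan chains, and MNN11 lost its call without replicate 2 of either group. PET117 (-1.76) is needed to assemble cytochrome c oxidase, SPO7 (-1.75) is a subunit of the phosphatase that activates Pah1, and HMT1 (-1.66) methylates arginines of RNA-binding proteins. DCD1 (-1.66) is a deaminase of deoxycytidylate, and MGM101 (-1.64) acts in the recombination of mitochondrial DNA. The remaining stable falls among the 20 were RPS28B (-1.76), YLR297W (-1.94), ANK1 (-1.87), TDA6 (-1.73) and IRC23 (-1.65). RPA34 (-1.73), MET18 (-1.68, shared probe set) and HLR1 (-1.61) each lost their call without 1 or more arrays. CIN2 (-2.03, adjusted p = 0.0438) had 19.5, 0.0365 and 17.7 without glucose, against 39.5, 42.0 and 22.3 with it. Its call was lost without any of 7 of the 12 arrays in turn and under 6 of the other settings.

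Single genes for nitrogen use rose strongly, and others fell or were not called. Yeast keeps genes for poor nitrogen sources repressed while good ones are at hand. Of 29 tested genes of this kind, including the ammonium permeases, 10 rose (34.48%) and 4 fell (13.79%), with a median of 0.12. The shares over all genes were 9.33% and 19.3%. PUT1, the proline oxidase that starts proline breakdown in mitochondria, had 113.6, 100.9 and 103.5 without glucose, against 6.55, 8.20 and 9.59 with it. All no-glucose replicates lay far above the glucose ones, a rise of 11.3-fold (adjusted p = 7.4e-08). PUT4, the proline permease gene, rose at least 2.84-fold. MEP2, a high-affinity ammonium permease, had 194.9, 185.3 and 212.2 without glucose, against 36.5, 37.8 and 43.7 with it, a 4.88-fold rise. CAR1 (1.81) for arginase and GAP1 (1.76) for the general amino acid permease rose too. ASP1, a cytosolic asparaginase gene, fell 2.08-fold, with 271.6, 266.6 and 272.2 without glucose and 540.2, 613.7 and 538.2 with it. GLN1, for glutamine synthetase, had a log2 change of 0.00.

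A list of amino acid breakdown held genes of the Ehrlich pathway, which turns aromatic and branched amino acids into fusel alcohols, and genes of glycine and serine breakdown. Of its 15 tested genes 3 rose (20%) and 2 fell (13.33%), against 9.33% and 19.3% over all genes. The 3 that rose act at the first steps of the Ehrlich pathway. ARO9, the transaminase for aromatic amino acids, had 134.4, 141.2 and 146.0 without glucose, against 5.96, 7.65 and 7.54 with it, a 16.7-fold rise (adjusted p = 3.3e-09). ARO10, the decarboxylase that follows, had 23.8, 25.6 and 28.1 against at most 3.02, a rise of at least 4.42-fold. BAT2, the cytosolic transaminase for branched amino acids, had 483.4, 287.0 and 371.7 without glucose and 94.0 to 103.4 with it, a 3.72-fold rise. The falls were outside that pathway: GCV1 (-0.94) and GCV3 (-0.83) encode subunits of glycine decarboxylase, and that of GCV3 was lost without 1 or more arrays.

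Amino acid permeases moved both ways: of 20 tested, 5 rose (25%) and 6 fell (30%), against 9.33% and 19.3% over all genes. AGP2 (2.10), GAP1 (1.76), PUT4 (1.51) and MMP1 (1.31), the last a permease of S-methylmethionine, were the 4 largest changes. The 6 falls became 3 with median centring and 2 with poly-A scaling. Amino acid synthesis mostly gave no call. The list of arginine and lysine synthesis had a median of -0.19, as did all genes. Of its 18 genes 0 rose and 5 fell (27.78%, against 19.3% over all genes). Without glucose replicate 3 or no-glucose replicate 2 in turn, 3 of these falls were called, and 2 with poly-A scaling. ARG2 (-1.05), the first enzyme of arginine synthesis, had 47.7, 36.3 and 25.1 without glucose, against 70.0, 75.7 and 79.1 with it. Of 28 genes for histidine, aromatic amino acids and serine, 1 rose and 8 fell (28.57%), led by ARO7 (-1.15), HIS3 (-1.07) and HIS1 (-1.03). Of these falls, 5 were called without no-glucose replicate 3, 4 with median centring and 3 with poly-A scaling. In branched amino acid synthesis 1 of 13 genes rose and 2 fell (15.38%), with ILV5 (-1.18) the larger fall. Sulfur amino acids went the other way, with 7 of 26 genes of sulfate assimilation and methionine synthesis higher (26.92%) and 2 lower (7.69%). MET2, which starts homocysteine synthesis from homoserine, had 105.8, 88.3 and 103.8 without glucose, against 22.1, 17.0 and 15.5 with it. STR3 (1.75), the cystathionine beta-lyase gene, rose 3.37-fold. Without glucose replicate 2 or 3, or no-glucose replicate 1, 3 of the 7 were called, and 4 without no-glucose replicate 3.

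**Figure D2:**
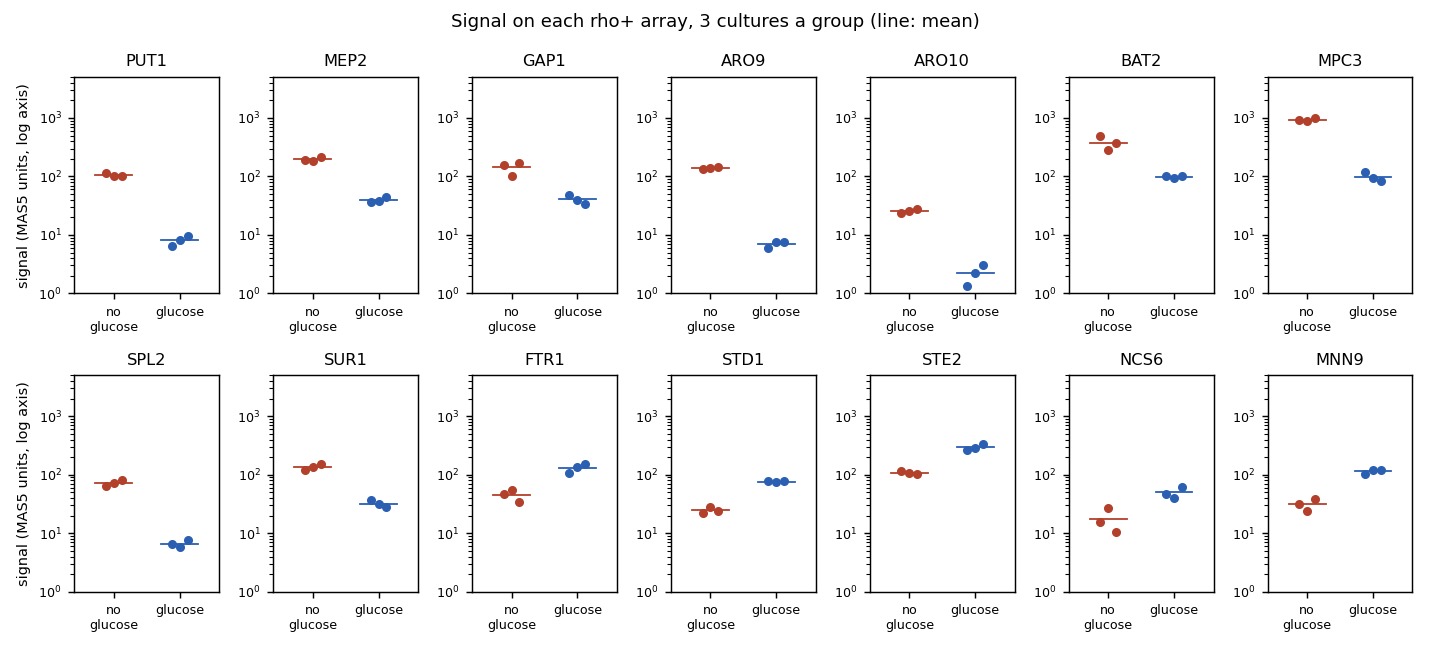
Signal of 14 genes on each of the 6 rho+ arrays (MAS5 units, log axis), no glucose in red on the left and glucose in blue on the right of each panel, with a line at the mean. In these 14 genes the replicates of the groups do not overlap: 9 of them, from PUT1 to SUR1, are higher without glucose and 5, from FTR1 to MNN9, are lower.

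Among regulators of glucose repression, 3 of 25 rose (12%) and 2 fell (8%), against 9.33% and 19.3% over all genes. MTH1 and STD1 encode paralogous proteins that hold the hexose transporter genes repressed, and they moved in opposite directions. MTH1 had 48.6, 63.7 and 74.6 without glucose, against 14.1 to 17.2 with it, a 3.65-fold rise. STD1 had 22.5, 27.7 and 24.5 without glucose, against 77.0, 74.8 and 77.2 with it, a 2.96-fold fall (adjusted p = 7.8e-05). MIG1, the main repressor of glucose-repressed genes, rose 2.52-fold, with 20.7, 18.3 and 27.0 against 5.84 to 10.4. USV1 (1.81), a zinc finger factor of growth on other carbon sources, rose, and HXK2 (0.65, adjusted p = 0.052) had no call. HXT2, a high-affinity glucose transporter gene, had 1308, 1453 and 1563 without glucose and 258.7, 197.6 and 168.9 with it. Of 11 genes of the GID ubiquitin ligase and of gluconeogenic enzyme degradation, 3 rose (27.27%) and 0 fell. GID8 (1.13) was among those that rose.

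Of 20 genes of Ras and protein kinase A signalling, which carries the glucose signal to growth, 3 rose (15%) and 6 fell (30%). Over all genes 9.33% rose and 19.3% fell. RAS1 had 21.3, 19.7 and 32.1 without glucose, against 58.8, 66.7 and 69.1 with it, a 2.62-fold fall. TPK3 (-1.37), for a catalytic subunit of the kinase, fell. BCY1, for its inhibitory subunit, had 465.3, 537.3 and 581.2 without glucose and 255.7, 243.2 and 246.8 with it, a 2.11-fold rise. PDE1 (1.08), a phosphodiesterase that breaks down cyclic AMP, rose 2.12-fold. In the pentose phosphate pathway, which supplies NADPH and ribose, 6 of 19 genes rose (31.58%) and 5 fell (26.32%), or 3 with poly-A scaling. The transaldolase and transketolase isozymes NQM1 (1.38) and TKL2 (1.22) and the lactonase relative SOL1 (1.32) rose, and SHB17 (-1.23), which feeds carbon into ribose, fell. SHB17 had 152.1, 87.7 and 106.5 without glucose, against 308.5, 240.1 and 254.2 with it.

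Phosphate genes gave 5 rises (20%) and 4 falls (16%) among 25, against 9.33% and 19.3% over all genes. SPL2, a small protein that restrains low-affinity phosphate uptake, had 65.4, 72.5 and 80.6 without glucose, against 6.45, 5.83 and 7.62 with it, a 9.14-fold rise (adjusted p = 5.9e-06). PHO89 (1.50), the sodium and phosphate symporter gene, rose 2.82-fold. PHO4 (-1.34), the transcription factor of the phosphate pathway, fell. PHO86 (-1.38) lost its call without any of 4 rho+ arrays in turn. Without glucose replicate 2 or 3, or no-glucose replicate 1 or 3, or with poly-A scaling, 3 of the 5 rises were called.

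In iron uptake and its regulon, 4 of 31 genes rose (12.90%) and 10 fell (32.26%), against 9.33% and 19.3% over all genes. The list median was -0.39, against -0.19 for all genes. FTR1, the iron permease of the plasma membrane, had 46.6, 55.1 and 34.6 without glucose, against 109.5, 133.9 and 152.3 with it, a 2.87-fold fall. CCC2 (-1.50), the copper pump that loads the ferroxidase, fell 2.82-fold. FET3, for that ferroxidase, had a log2 change of -0.47 and was not called. MRS4 (1.50), the mitochondrial iron carrier, had 338.6, 325.9 and 327.7 without glucose, against 106.7, 119.7 and 121.6 with it. CTH1 (1.17), whose product degrades messenger RNAs in iron shortage, rose 2.25-fold. The 10 falls became 6 with median centring and 4 with poly-A scaling, while 4 genes were called higher under both. Of 20 copper and zinc genes 2 rose (10%) and 3 fell (15%), against 9.33% and 19.3% over all genes. Those that rose were the metallothionein gene CRS5 (1.54) and the copper-sensing factor CUP2 (1.01), and the zinc transporter ZRT2 fell, with 247.6, 166.6 and 241.6 against 395.5, 437.6 and 462.9.

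**Figure D3:**
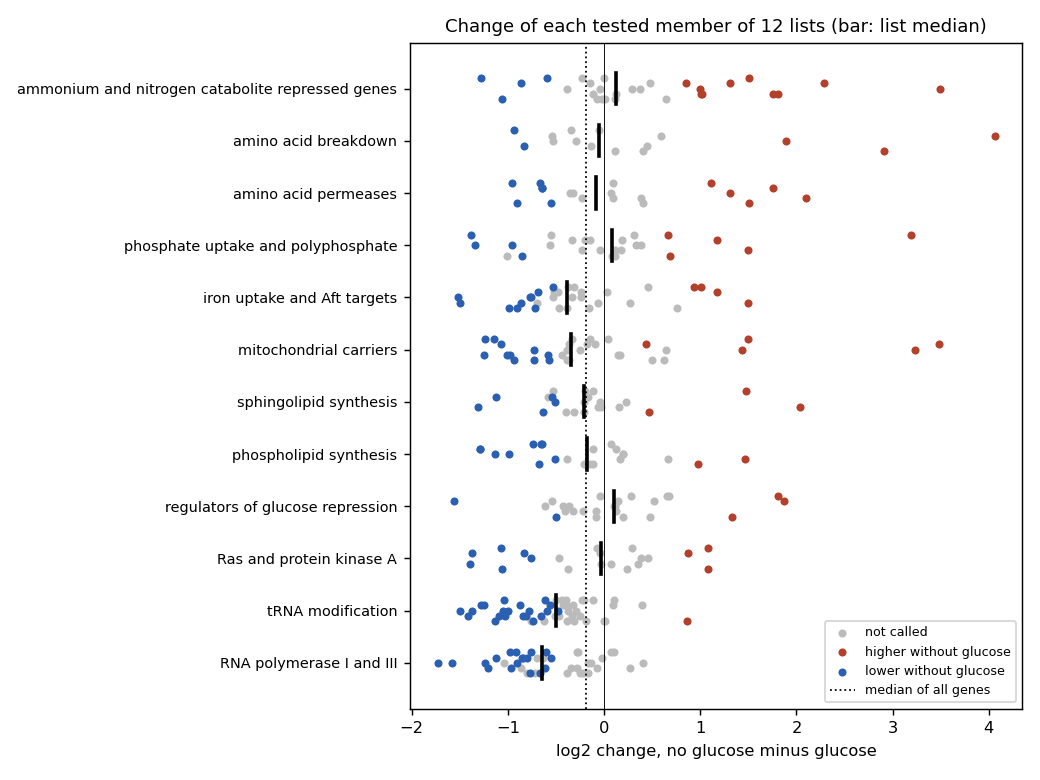
Log2 change, no glucose minus glucose, of each tested member of 12 gene lists in rho+ cells. Red points rose, blue points fell, grey points were not called, the black bars are list medians and the dotted line is the median of all genes at -0.19. The nitrogen and amino acid breakdown lists have a few far rises up to 3.49 and 4.06, while RNA polymerase I and III and tRNA modification lie mostly to the left.

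Phospholipid and ergosterol genes had larger shares of falls (40.91% and 33.33%) than all genes (19.3%), while the share of sphingolipid genes was 22.73% and 4 of 16 fatty acid synthesis genes fell. The list medians of phospholipid, sphingolipid and fatty acid genes lay within 0.02 of that of all genes. In phospholipid synthesis, 2 of 22 genes rose and 9 fell. PAH1, the phosphatidate phosphatase that turns phospholipid precursors towards storage fat, had 49.3, 41.9 and 45.4 without glucose, against 17.3, 15.3 and 14.0 with it, a 2.77-fold rise. HNM1, the choline permease gene, had 172.0, 209.1 and 92.3 against 375.7, 335.2 and 396.5, a 2.45-fold fall, and ITR2 (-1.29), an inositol permease, fell 2.44-fold. In sphingolipid synthesis 3 of 22 genes rose and 5 fell. SUR1 (2.04), which adds mannose to inositol sphingolipids, had 120.0, 137.2 and 152.3 without glucose and 37.7, 31.1 and 27.7 with it, a 4.11-fold rise. ORM2 (1.48), an inhibitor of the first step of sphingolipid synthesis, rose 2.79-fold, and LAG1 (-1.31) for ceramide synthase and TSC10 (-1.12) fell. HMG2 (1.20) was the 1 gene of 24 in ergosterol synthesis that rose, against 8 that fell. FAA3 (-1.22) and IFA38 (-1.02) led the 4 falls among 16 fatty acid synthesis genes, of which 2 rose. Median centring left 4 of the 9 phospholipid falls, 4 of the 8 ergosterol falls and 2 of the 5 sphingolipid falls, and poly-A scaling left 3, 3 and 2. With median centring 3 sphingolipid genes and 3 fatty acid genes were higher, against 2 and 3 lower. Without glucose replicate 2 or 3, 5 phospholipid falls and 4 ergosterol falls were called, and 5 ergosterol falls without no-glucose replicate 2. Without any 1 rho+ array in turn, 2 or 3 of the sphingolipid falls were called.

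Lists of mitochondrial genes differed in their counts. Of 44 respiratory chain and ATP synthase genes of the nucleus 23 rose (52.27%) and 0 fell, with a median of 0.62. INH1, the inhibitor of ATP synthase, had 75.5, 90.5 and 122.4 without glucose, against 20.5, 17.4 and 21.5 with it, a 4.52-fold rise. NDI1 (1.41), the internal NADH dehydrogenase, and QCR10 (1.54), a subunit of the cytochrome bc1 complex, rose as well. Of 74 mitochondrial ribosomal protein genes 3 rose (4.05%) and 25 fell (33.78%), with a median of -0.40. MRPL11 (-1.37) and MRPL8 (-1.37) fell 2.59-fold and 2.58-fold, and MRP20 (1.08) rose. Of 36 mitochondrial import genes 2 rose and 6 fell, led by PAM18 (-1.31), a subunit of the import motor. These shares, 5.56% and 16.67%, were below those over all genes (9.33% and 19.3%), and 3 falls were called with poly-A scaling. Of 32 mitochondrial carriers 5 rose (15.62%) and 11 fell (34.38%). MPC3, which replaces Mpc2 in the pyruvate carrier during respiration, had 929.4, 872.7 and 996.8 without glucose, against 120.1, 94.4 and 82.3 with it, a 9.40-fold rise. OAC1 (-0.98), the oxaloacetate carrier, and DIC1 (-0.94), the dicarboxylate carrier, fell. The 25 falls of ribosomal protein genes became 12 and 15 without glucose replicates 2 and 3, 14, 16 and 16 without no-glucose replicates 1, 2 and 3, 16 with quantile normalization, 13 with median centring and 6 with poly-A scaling. Among the carriers, median centring gave 8 rises and 7 falls, and poly-A scaling 6 falls. Of their 11 falls, 7 were called without glucose replicate 2 or 3, and 3 of the 5 rises without either of these or no-glucose replicate 1 or 3.

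Of 15 vacuolar proteases and their inhibitors 7 rose (46.67%, against 9.33% over all genes) and 0 fell. CPS1 (1.88), a carboxypeptidase, had 115.4, 103.5 and 102.5 without glucose, against 28.7, 28.8 and 26.3 with it. PAI3 (1.29), an inhibitor of proteinase A, rose 2.44-fold, and the rise of PRB1 (1.14), for proteinase B, was lost without glucose replicate 2 or 3. Without either of these, 4 of the 7 were called. Of 33 autophagy genes 8 rose (24.24%) and 0 fell. ATG8 had 597.9, 759.2 and 606.4 without glucose, against 185.5, 196.4 and 207.0 with it, a 3.30-fold rise. ATG39 (1.30), a receptor for the autophagy of nuclear membrane, rose at least 2.54-fold, and ATG36 (1.21), a receptor for that of peroxisomes, rose 2.32-fold. Of 39 proteasome and ubiquitin genes 1 rose and 3 fell, and of 19 genes of the vacuolar proton pump 0 rose and 4 fell. These shares of falls were 7.69% and 21.05%, against 19.3% over all genes.

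Among genes that make ribosomes and transfer RNAs, nearly all calls were falls. Of 40 genes of RNA polymerase I and III, which transcribe ribosomal and transfer RNA, 0 rose and 18 fell (45%), with a median of -0.65. The share of falls over all genes was 19.3%. RPC25, a polymerase III subunit, had 16.7, 17.7 and 20.9 without glucose, against 55.9, 53.5 and 65.3 with it, a log2 change of -1.58 (adjusted p = 6.5e-05). RPB8 (-1.24), a subunit common to all nuclear polymerases, fell 2.37-fold, with 221.3, 190.3 and 251.7 against 495.5, 537.7 and 534.7. Of 47 tRNA modification genes 1 rose and 21 fell (44.68%), with a median of -0.50. NCS6 (-1.50) and IKI1 (-1.41), which act on the wobble uridine, fell 2.83-fold and 2.65-fold, and KAE1 (-1.37) and TAD2 (-1.28) fell too. NCS6 had 15.3, 26.6 and 10.6 without glucose and 47.7, 39.7 and 62.5 with it. Poly-A scaling left 10 of the 18 polymerase falls and 12 of the 21 modification falls. The list medians were then -0.61 and -0.47.

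Of 80 cytosolic ribosomal protein genes 0 rose and 33 fell (41.25%, against 19.3% over all genes), with a median of -0.29. Of 101 ribosome biogenesis factors 1 rose and 31 fell (30.69%), with a median of -0.48. RPS28B had 825.4, 720.7 and 739.2 without glucose, against 2180, 2844 and 2794 with it, a 3.40-fold fall. EMG1 (-1.30) and UTP22 (-1.29) act in small-subunit maturation. The 33 and 31 falls became 15 and 18 with median centring and 7 and 10 with poly-A scaling, and the 31 became 19 without glucose replicate 2. At an unadjusted p under 0.05, 0 of the 80 ribosomal protein genes were higher too. CAF20 (-1.17), an inhibitor of translation initiation, led the 8 falls among 36 translation factors (22.22%, against 19.3% over all genes). Of these factors 1 rose, and 4 of the falls were called with poly-A scaling. Of 20 cytosolic tRNA synthetases 1 rose (5%) and 2 fell (10%), below the shares over all genes (9.33% and 19.3%). DPS1 (1.03), the aspartyl enzyme, was higher and TYS1 (-1.23), the tyrosyl enzyme, was lower.

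**Figure D4:**
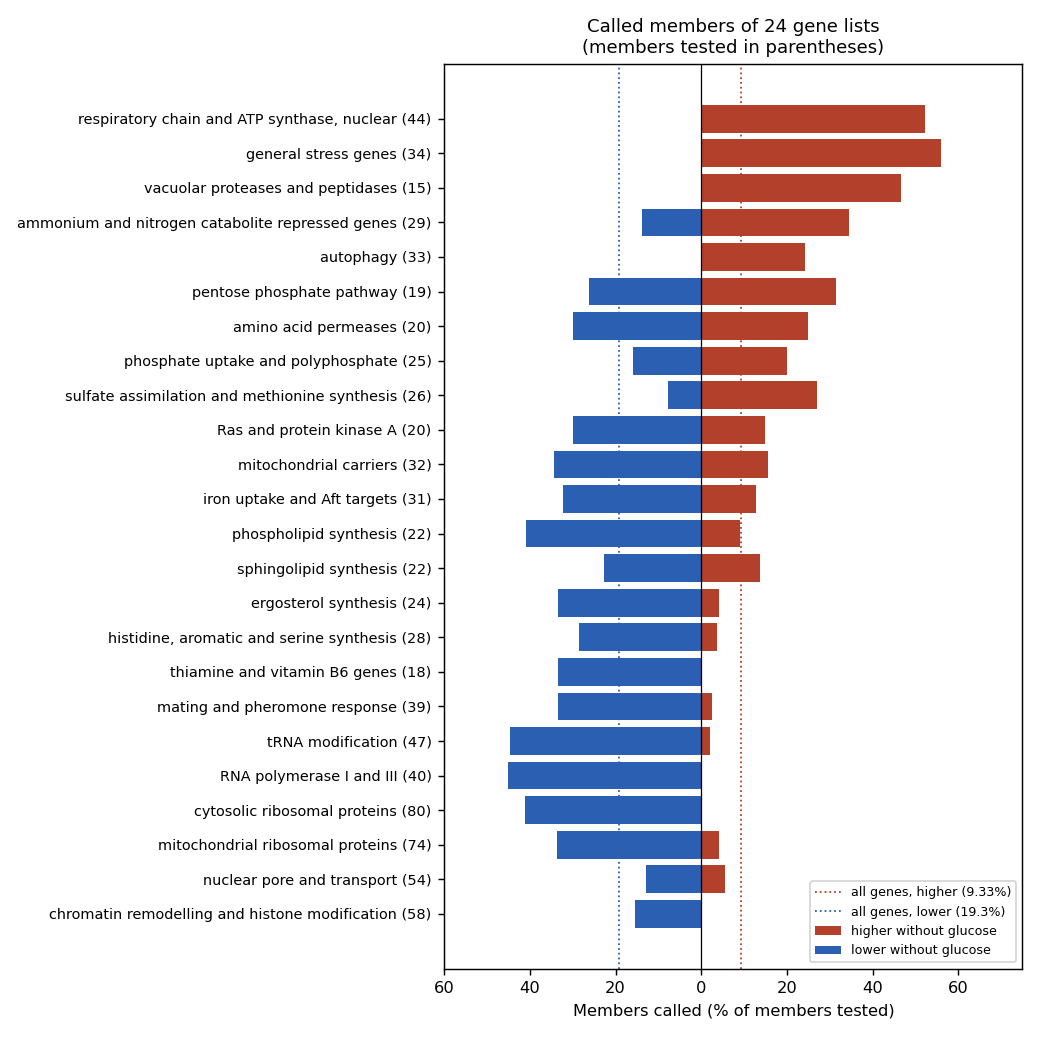
Percent of the tested members of 24 gene lists that were called higher (red, to the right) or lower (blue, to the left) without glucose, with the number tested in parentheses. Dotted lines mark the shares over all genes, 9.33% higher and 19.3% lower. Respiratory, stress and vacuolar protease genes extend farthest to the right, and RNA polymerase I and III and tRNA modification genes farthest to the left.

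Falls were 33.33% of the mating list and 32.56% of the G2 and mitosis list, against 19.3% over all genes, and 21.62% of the G1 and S phase list and 18.18% of the polar growth list. Most members of each list were not called. Of 39 mating and pheromone response genes 1 rose and 13 fell, with a median of -0.46. STE2, the receptor for alpha pheromone, had 117.1, 107.9 and 101.5 without glucose, against 266.3, 290.7 and 335.8 with it, a 2.70-fold fall. STE6 (-1.37), the exporter of a-factor, fell 2.59-fold, and STE4 (-0.97), for the beta subunit of the pheromone G protein, fell 1.95-fold. MFA1 (0.51, shared probe set) and MFA2 (0.18), the a-factor genes, were not called, so that of the 7 MATa markers 3 fell and 0 rose. Without glucose replicate 2 the 13 falls became 7, and without no-glucose replicate 3 they became 8. Median centring gave 4 rises and 8 falls in this list, and poly-A scaling 1 and 6. Of 43 genes of G2 and mitosis 0 rose and 14 fell, among them CLB1, CDC27 (-1.37) and CDC5 (-1.13), and 8 of the 14 were called without glucose replicate 2 or 3, 9 with median centring and 8 with poly-A scaling. Of 37 genes of G1 and S phase 2 rose and 8 fell, including PCL1 (-1.15) and CLN1 (-1.07). BOI1 (-1.38), a polarity protein, was the largest of 8 falls among 44 genes of polar growth, where ABP1 (1.26), an actin-binding protein, was the 1 rise. Of these 8 falls, 5 were called without glucose replicate 2 or no-glucose replicate 3, and 3 without no-glucose replicate 1, while median centring gave 5 and poly-A scaling 3. Of 5 histone genes 0 were called by limma, and 0 had an unadjusted p under 0.05.

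In the cell wall list 7 of 47 genes rose (14.89%) and 6 fell (12.77%), against 9.33% and 19.3% over all genes. Without glucose replicate 2 or 3 or no-glucose replicate 1 or 2, 3 or 4 were called higher, and 4 with poly-A scaling. UTR2 (-1.24), a crosslinker of chitin to glucan, had 297.3, 367.4 and 254.4 without glucose, against 660.3, 716.5 and 783.9 with it. SLT2 (-1.20), the kinase of the cell wall integrity pathway, fell 2.30-fold, and SPI1 (1.68), a cell wall protein of stationary cells, rose. In secretion, 1 of 45 genes rose and 5 fell, a share of falls of 11.11%, below that over all genes (19.3%). SNC2 (1.31), a SNARE of secretory vesicles, had 715.7, 617.0 and 909.9 without glucose and 305.0, 308.2 and 278.9 with it, whereas YPT31 (-1.44), a Golgi GTPase, fell 2.72-fold. Without glucose replicate 2 or 3, 3 of the 5 secretion falls were called, and 2 with poly-A scaling. In the endoplasmic reticulum list 1 of 47 genes rose and 8 fell, led by SIL1 (-1.33), an exchange factor for the chaperone Kar2. The share of falls was 17.02%, against 19.3% over all genes. Of these falls, 5 were called without glucose replicate 3 or no-glucose replicate 2, 5 with median centring and 3 with poly-A scaling.

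Several lists stood near or below the share of all genes. Of 54 nuclear pore and transport genes 3 rose and 7 fell, of 58 chromatin genes 0 rose and 9 fell, and of 65 splicing genes 2 rose and 6 fell. These shares of falls were 12.96%, 15.52% and 9.23%, against 19.3% over all genes. Single members still moved: NUP57 (-1.39) and SEH1 (-1.34), of the nuclear pore, fell 2.61-fold and 2.53-fold. CSE2 (1.29), a Mediator subunit, had 58.2, 50.1 and 58.1 without glucose, against 22.3, 26.2 and 17.4 with it. POP2 (-1.14), a deadenylase, and PUF2 (-1.13), an RNA-binding protein, fell among 39 genes of messenger RNA decay. Of these 39, 4 rose (10.26%) and 6 fell (15.38%), against 9.33% and 19.3% over all genes. Of 10 PAU and DAN genes of the cell wall 0 were called by limma, and 0 had an unadjusted p under 0.05. The chromatin falls became 4 without glucose replicate 2, and the splicing falls 2 or 3 without glucose replicate 1, 2 or 3 or no-glucose replicate 1 or 3. With median centring 5 chromatin and 2 splicing genes were lower, and poly-A scaling gave 4 in the nuclear pore list, 4 in the chromatin list, 2 in splicing and 3 in messenger RNA decay.

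Genes that no list held also took part. Of the genes called with at least 2-fold changes, 141 that rose and 156 that fell were in none of the 72 lists. Of 444 tested genes without a standard name, 71 rose (15.99%) and 56 fell (12.61%), against 9.33% and 19.3% over all genes. In 20 called genes the glucose replicates were all at or below detection and the no-glucose replicates all above it, and in 12 the reverse held. Calls depended on brightness: from the dimmest to the brightest quartile of the genes, 6.94%, 7.16%, 9.63% and 13.6% rose, while 11.1%, 24%, 24.7% and 17.5% fell. Of 1526 fitted probe sets with no single gene listed, 144 were higher (9.44%) and 83 lower (5.44%). Over all fitted probe sets the shares were 9.33% and 15.7%.

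RNAs without a poly(A) tail differed in their changes. Of 91 tested tRNA genes, 38 rose (41.76%, against 9.33% over all genes) and 0 fell, with a median of 0.48. Of the 91, 87 stand on probe sets shared with similar transcripts. At an unadjusted p under 0.05, 49 of the 91 were higher and 5 lower. Poly-A scaling left 19 of the rises, and leaving out 1 array gave 22 to 43. Of 53 small nucleolar RNA genes 7 rose and 5 fell, with a median of 0.19, and of 4 ribosomal RNA genes 1 rose and 0 fell. The 10 ribosomal RNA control probe sets had a mean log2 signal of 8.61, 8.50 and 8.71 without glucose, against 7.60, 7.17 and 7.08 with it. They were 1.32 higher without glucose and did not overlap, at an exact two-sided permutation p of 0.1, the smallest that 3 arrays against 3 can give. The 12 poly-A controls differed by -0.04 (exact permutation p = 0.7). The part of this difference in the tRNA counts was not tested. The signal of the 5′ probe set over that of the 3′ one was 0.188 ± 0.0058 without glucose and 0.319 ± 0.07 with it for SPT15, and 0.633 ± 0.033 and 0.705 ± 0.006 for ACT1 (SD, n = 3 each), with an exact permutation p of 0.1 for both. The part of this ratio in the changes of the other genes was not tested.

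The rho+ response was then set against that of rho0 cells, by a limma contrast of the changes (rho+ minus rho0). The rho+ response was higher in 246 genes (4.59%) and lower in 56 (1.04%). ARO9 changed by 4.06 in rho+ and by -0.11 in rho0, a difference of 4.17 (SE 0.27, adjusted p = 1.8e-06). MEP2 changed by 2.29 in rho+ and by -1.35 in rho0, which are both called and opposite, with a difference of 3.64. MRS4 (1.50 in rho+, -0.79 in rho0) and CUP2 (1.01 in rho+, -0.66 in rho0) were also called in both and opposite. PUT1, GAP1, ARO10, BAT2, MET2, SPL2, SUR1 and MPC3 rose in rho+ and had no call in rho0, with differences of 1.56 to 3.28 that were called. By list, the rho+ response was higher for 18 of 44 respiratory genes and 5 of 29 nitrogen genes.

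Other changes of rho+ cells were also called in rho0 cells, with no called difference between them. HXT2 changed by 2.80 in rho+ and by 2.06 in rho0, GRX4 by -2.41 and by -1.61, STD1 by -1.56 and by -1.41, and RPC25 by -1.58 and by -1.57. STE6 changed by -1.37 in rho+ and by -1.26 in rho0, MRPL11 by -1.37 and by -1.28, and CDC27 by -1.37 and by -1.36. A missing call does not show equal responses, since the standard errors of these differences were 0.24 to 0.37. SPG4 rose in both and more in rho+, by 5.79 in rho+ and by 4.31 in rho0 (adjusted p of the difference = 0.0113).

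**Figure D5:**
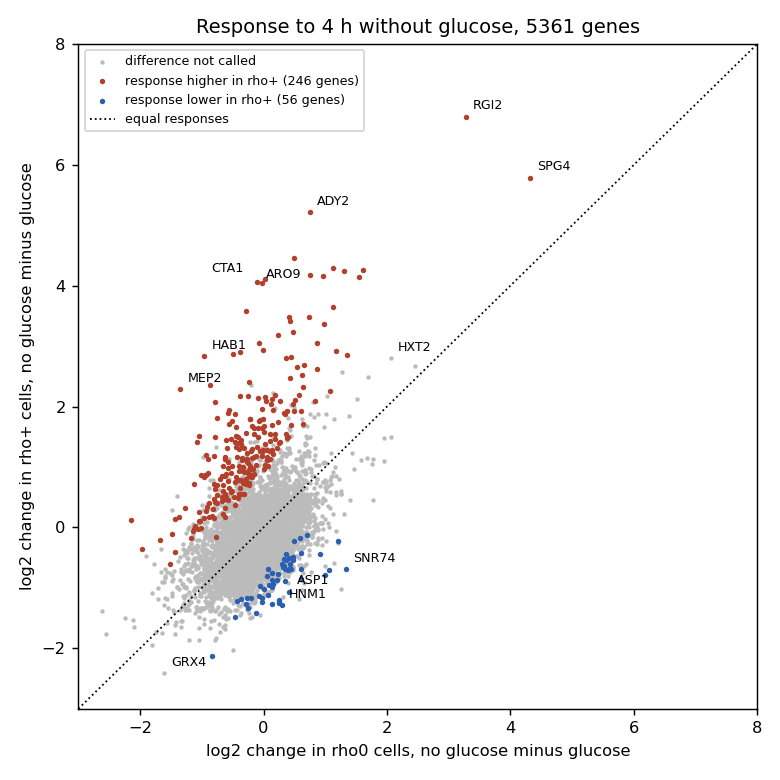
Log2 change after glucose withdrawal in rho+ cells (vertical) against that in rho0 cells (horizontal) for 5361 genes. The 246 red genes had a higher and the 56 blue genes a lower response in rho+ (limma contrast), and the dotted line marks equal responses. Most of the red genes lie above 0 in rho+ and near 0 in rho0, while RGI2 and SPG4 are high in both.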

How the data were processed

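RNA of 12 yeast cultures, 3 in each group, was measured on 1-colour Affymetrix arrays. The values are linear signal intensities that the authors deposited, made with MAS5 per the submitters' processing notes. Its version and scaling target are not stated in those notes as used here. Trimmed by 2% at each end, the mean was 100.1 on all arrays. Precision is limited by the number of arrays.

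Of 9335 probe sets, 60 are controls. GEO's platform annotation lists a single gene for 6504 probe sets, several for 328 and none for 2443 others, with symbols updated from RefSeq. The brightest probe set stood for a gene, and 198 of the 5361 genes tested rest on shared ones. Promoter sequences were not used here, and the place of genes along the chromosomes served for the count at chromosome ends.

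Before taking log2, a pseudocount of 1.498 was added to each signal (the 10th percentile over the table). Probe sets were kept where a group mean exceeded 5.822, their 25th percentile and the detection level, at or below which 95.8% of negative control signals lay. Changes of dim genes are understated on this scale. A group-means model with an intensity trend was fitted by limma 3.58.1 (R 4.3.3) to 7483 probe sets of all 12 arrays. Two-sided p-values were Benjamini-Hochberg adjusted over these, at a threshold of 0.05. Every adjusted p in the text is from this fit, except that of the TOR1 average, which is from a fit to gene averages. Replicates are labelled biological. Both conditions of a strain came from the same master cultures, but no label ties a replicate number to one, so no block was used. The fit was tested on simulated data with independent noise, in which 100 probe sets changed 2-fold and 100 changed 4-fold. It recovered 55% of the 2-fold and 95% of the 4-fold changes, so a missing call does not show that a gene was unchanged. It gave 4 false calls among 7283 unchanged probe sets. In the data 698 probe sets were called higher and 1175 lower, so these rates need not hold there.

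Named genes are the 20 largest rises and falls with replicates apart, up to 4 called members with the largest change and the brightest member of each list, the 10 largest differences of response in each direction, and markers. The members and lists were chosen with earlier results of these data known. Alternatives changed the scaling, pseudocount, filter, probe set choice, arrays in the fit and replicate block, and left out each array.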

Additional observations from a re-analysis of the deposited data

Results flagged for a closer look

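The response of rho+ cells differed from that of rho0 cells in a test of the difference itself, the limma contrast of the log2 changes, for 246 genes in the higher direction and 56 in the lower. The 10 largest higher differences were ADY2 at 4.48, ARO9 at 4.17, CTA1 at 4.08, POT1 at 4.07, FDH1 at 3.96, PRR2 at 3.85, HAB1 at 3.79, MEP2 at 3.64, RGI2 at 3.52 and CSR2 at 3.43. Of these, FDH1 and CSR2 stand on shared probe sets. RGI2 is the 1 of the 10 that rose in rho0 cells too, by 3.28, while MEP2 fell there, by 1.35. HAB1 changed by 2.83 in rho+ and by -0.96 in rho0, and the rho0 change was not called.

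The 10 largest lower differences were SNR74 at -2.02, PAN3 at -1.77, SNR128 at -1.76, HNM1 at -1.60, MRI1 at -1.50, SHB17 at -1.49, ASP1 at -1.48, EFM1 at -1.45, STE12 at -1.44 and RDN5-3 at -1.42. The calls of PAN3, SHB17 and RDN5-3 were lost without 1 or more of the arrays. SNR74 and SNR128, which are small nucleolar RNAs without a poly(A) tail, changed by -0.69 and -0.70 in rho+ and by 1.34 and 1.06 in rho0. The rho0 changes of PAN3 (1.00) and RDN5-3 (1.21) were called rises, while those of HNM1 (0.30), MRI1 (0.25) and ASP1 (0.42) were not called. STE12, the transcription factor of mating, changed by -0.85 in rho+ and by 0.60 in rho0.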

How the results depend on the processing

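The counts of genes that rose (500) and of genes with a higher response in rho+ (246) stayed within 1.5 times under every planned setting, except that poly-A scaling gave 128 for the higher response. Leaving out 1 array gave 347 to 567 rises and 170 to 289 higher responses. The 1036 falls became 579 with median centring and 372 with poly-A scaling, and 613 to 1181 without 1 array, lowest without replicates 2 (613) and 3 (658) of rho+ glucose. The 56 genes with a lower response in rho+ became 7 with poly-A scaling, 85 with the mean over a gene's probe sets, and 21 to 84 without 1 array, at 21 without replicate 2 or 3 of rho+ glucose, 32 without its replicate 1, and 33 and 34 without replicates 2 and 3 of rho+ no glucose. The share of rises among calls was 32.55%, against 53.12% with median centring, 47.9% with poly-A scaling and 41.25% after quantile normalization. The cause was not tested.

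The replicate numbers showed little pairing of the rho+ arrays. Deviations from the group means correlated at 0.0223, -0.0139 and 0.114 for equal numbers, and at -0.096 to 0.0613 for unequal ones. In the rho0 arrays, which also enter the fit, equal numbers gave 0.0448, 0.182 and 0.446, against -0.354 to 0.177 for unequal ones. With a replicate block 585 genes rose, 1220 fell and 113 had a lower response in rho+. Without both rho0 arrays whose hybridization controls were low, a setting chosen after seeing the data, 590 rose and 1242 fell.

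Of all 1536 called genes 809 kept their call without any single array. Of 295 called named genes, picked for large changes, 215 kept their call without any single array, 223 with poly-A scaling and 258 with median centring. TOR1, for a growth-regulating kinase, reversed: it was -1.08 on its brightest probe set and 0.80 (adjusted p = 0.0591) averaged over 8 probe sets. Of 271 genes with several fitted probe sets, 97 had probe sets that differed in call, and 5 (CDC39, CYR1, DCK1, SWR1 and TOR1) had some called in opposite directions. Depth of signal limits genes near the detection level, where only bounds can be given.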

Other observations

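The genes named here were chosen after their values were seen, as the largest called changes outside the lists and the rule. Among the rises were YGR161W-C (2.87) and RTS3 (1.93), and every rise named in this paragraph kept its call without any single array. PIN3 (2.80), LEE1 (2.62), the transcription factor gene CIN5 (2.57) and ROQ1 (2.94), a regulator of the ubiquitin ligase Ubr1, rose as well. SLZ1 (2.92), a meiotic gene, had 11.5 to 13.3 without glucose, against 0.230, 0.376 and 0.337 with it. These glucose signals were all under the detection level, so the size of its rise is only bounded. REG2 (2.25), a regulatory subunit of the phosphatase that opposes Snf1, and ZNF1 (2.35), a factor of growth without sugar, also rose. The glucose signals of ZNF1 and LEE1 were all under the detection level too. COX26 (1.94) and COX19 (2.11), for a subunit and an assembly factor of cytochrome c oxidase, rose, while COX10 (-1.53), for heme A synthesis, fell.

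Among the falls, VAN1 (-1.37), a partner of Mnn9 in the Golgi, fell besides the mannan genes MNN9, MNN11 and ANP1. MSR1 (-1.61) encodes a mitochondrial arginyl-tRNA synthetase and HPT1 (-1.54) a purine salvage enzyme. SHO1 (-1.51) is an osmosensor, PLC1 (-1.48) the phospholipase C gene, and SAM4 (-1.48) a methyltransferase that makes methionine.

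The 10 protein-coding genes nearest each chromosome end gave 174 tested genes, of which 26 rose (14.94%) and 18 fell (10.34%). The shares over all genes were 9.33% and 19.3%.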
